A study of Mus musculus with 35 samples.

Results

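Transcripts of 8 complement genes were measured in mouse bone marrow-derived macrophages (BMDMs), a culture of macrophages grown out of bone marrow precursors. The genes were C1qa, C1qb, C1qc, C3, C3ar1, C5ar1, Cfb and Cfp, chosen by symbol among 47069 gene identifiers, and all 8 were found. All 8 also passed the filter for testing, a mean of at least 1 FPKM over the libraries, as did 11354 genes in all. FPKM counts fragments per kilobase of transcript and scales them to the size of the library, so levels of different genes are compared per length.

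BMDMs came from C57BL/6 mice, either wild type or labelled AMPKa1-/-, and were exposed for 24 h to 1 of 6 treatments. These were vehicle (DMSO), 100 nM of the glucocorticoid dexamethasone (Dex), 100 ng/ml of the bacterial component lipopolysaccharide (LPS), LPS + Dex, 1 µg/ml of damage-associated molecular patterns (DAMPs), and DAMPs + Dex. Every group had 3 libraries but one: wild-type LPS had 2, numbered 2 and 3, and its replicate 1 was not analysed here. The labels do not name the molecules in the DAMP preparation. All cultures were differentiated with L929 conditioned medium, and the study counts cultures of individual mice as replicates. Library sizes read from the steps that single fragments make in the FPKM of weak genes were 15837203 to 31955298 fragments.

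The LPS and Dex labels were borne out by marker transcripts, and the genotype label was not borne out by the level of Prkaa1. No marker was chosen for the DAMP label, which was not checked. Tsc22d3, a classical glucocorticoid target, averaged 53.5 FPKM in wild-type vehicle and 709 in wild-type Dex cultures. Nos2, the inducible nitric oxide synthase, averaged 0.029 FPKM in wild-type vehicle and 84.7 in wild-type LPS cultures. All 8 of the LPS response genes examined were higher with LPS in each genotype, and all 7 glucocorticoid response genes were higher with Dex. Prkaa1, which encodes AMPKa1, read 15.9, 11.8 and 15.3 FPKM in wild-type vehicle cultures and 14.8, 16.5 and 15.4 FPKM in those labelled AMPKa1-/-. Prkaa1 was lower in the libraries labelled AMPKa1-/- under none of the 6 treatments at an adjusted p under 0.05 in limma, and at an unadjusted p under 0.05 under 0. A value over the whole gene does not check a deletion of part of it, so the cultures are called libraries labelled AMPKa1-/- throughout, and every direction between genotypes rests on that label.

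The macrophage label was borne out as well. All 8 macrophage markers passed the filter, and Lyz2, the lysozyme of macrophages and the most abundant of them, ranged from 10343 to 35906 FPKM. A pair of features of the libraries bears on the levels below. The 3 wild-type Dex libraries had the lowest FPKM sums of all, 680905, 647329 and 689281. Saa3, an acute-phase transcript, took 16.0% to 24.0% of the FPKM sum in the wild-type LPS + Dex libraries and 16.5% to 21.5% in those labelled AMPKa1-/-, against 0.00829% to 0.0344% in wild-type vehicle. Centring the libraries on a common median left the sign of each called member change as it was. In these bulk cultures, fewer cells of a type and less RNA per cell cannot be told apart.

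Complement is a cascade of plasma proteins that tags particles for uptake and recruits leukocytes. The classical pathway opens when C1q, a hexamer built of A, B and C chains encoded by C1qa, C1qb and C1qc, binds antibody complexes or dying cells. The alternative pathway amplifies deposition of the central component C3 through factor B (Cfb) and is stabilised by properdin (Cfp). The cleavage fragments C3a and C5a act on the receptors encoded by C3ar1 and C5ar1. Most complement proteins in plasma come from the liver, whereas macrophages are a main source of C1q and myeloid cells of properdin.

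The C1q genes lie side by side on the minus strand of chromosome 4 (GRCm38), C1qb at chr4:136880129-136886187, C1qc at chr4:136889804-136893065 and C1qa at chr4:136895917-136898803. C3 lies at chr17:57203970-57228136, Cfb at chr17:34856374-34862518, Cfp at chrX:20925454-20931555, C3ar1 at chr6:122847138-122856161 and C5ar1 at chr7:16246743-16259540, all on the minus strand. RefSeq promoter windows of 300 bases around the annotated start (GRCm38.p6) were matched for 6 of the 8 members, C1qb, C1qc, C3, C3ar1, C5ar1 and Cfp. The windows of C1qb, C1qc and C3 are printed because these genes moved in opposite directions with LPS. Each reads 5′ to 3′ along the gene, and capitals mark matches to the motifs searched.
C1qb promoter, chr4:136886151-136886450, minus strand: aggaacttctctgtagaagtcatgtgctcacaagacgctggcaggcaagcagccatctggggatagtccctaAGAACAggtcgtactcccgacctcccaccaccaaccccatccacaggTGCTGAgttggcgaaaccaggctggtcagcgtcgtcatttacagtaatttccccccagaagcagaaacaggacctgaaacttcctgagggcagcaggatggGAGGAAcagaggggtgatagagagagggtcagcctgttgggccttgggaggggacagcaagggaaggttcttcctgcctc
C1qc promoter, chr4:136892865-136893164, minus strand: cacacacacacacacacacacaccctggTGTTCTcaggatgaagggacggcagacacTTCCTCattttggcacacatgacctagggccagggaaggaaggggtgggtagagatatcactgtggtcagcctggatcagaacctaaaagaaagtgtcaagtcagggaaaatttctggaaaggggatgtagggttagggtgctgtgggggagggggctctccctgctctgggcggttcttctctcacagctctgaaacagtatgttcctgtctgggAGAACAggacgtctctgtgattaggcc
C3 promoter, chr17:57228087-57228386, minus strand: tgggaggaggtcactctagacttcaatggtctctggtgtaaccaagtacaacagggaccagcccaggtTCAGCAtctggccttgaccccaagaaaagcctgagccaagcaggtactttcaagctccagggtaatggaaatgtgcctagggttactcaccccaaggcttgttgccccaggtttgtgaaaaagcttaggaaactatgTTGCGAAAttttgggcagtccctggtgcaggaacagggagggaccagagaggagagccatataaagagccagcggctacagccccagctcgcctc

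Both strands were searched for TGTTCT (a glucocorticoid receptor core element), TTGCNNAA (C/EBP), GAGGAA (PU.1), GGG and TTTCC separated by 2 bases (NF-kB), GAAA and GAAA separated by 2 bases (interferon response) and TGCTGA (MAF). The C1qb window held TGTTCT on the opposite strand, read as AGAACA, together with TGCTGA and GAGGAA. The C1qc window held TGTTCT on each strand and GAGGAA on the opposite strand. The C3 window held TTGCGAAA, a match to the C/EBP motif, and TGCTGA on the opposite strand. Of 32851 promoter windows, TGTTCT was found in 19.0%, TTGCNNAA in 10.8%, GAGGAA in 28.3%, the NF-kB motif in 1.63%, the interferon motif in 3.44% and TGCTGA in 19.5%. Among the other members, C3ar1 held the NF-kB motif and TGCTGA, both on the opposite strand, C5ar1 held TGCTGA, and Cfp held GAGGAA in 2 places on the opposite strand. None of these matches overlapped another, and they describe the letters of the windows and do not show binding.

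LPS moved most of the members, and it moved them apart: the C1q chains and the C3a receptor fell while C3 and properdin rose, and factor B was near 0 without LPS. Genes were tested with limma on log2(FPKM + 1) in a fit of all 35 libraries, and a gene was called at a Benjamini-Hochberg adjusted p under 0.05 over the genes tested. With LPS against vehicle, 3 members were called higher and 4 lower in wild-type BMDMs, where 55.7% of all genes tested were called. Cfb is 1 of the 3, and since its LPS libraries carried it past the filter, nothing is read from its call against vehicle. The same counts, 3 and 4, were found in the libraries labelled AMPKa1-/-, where 64.3% of genes were called. LPS + Dex against vehicle called 6 members in wild type (54.2% of all genes) and 6 in the libraries labelled AMPKa1-/- (57.4%), 2 up, Cfb being 1 of them, and 4 down in each. Adding Dex to LPS lowered 3 members and raised 0 in wild type (34.1% of all genes called, 3 members at an unadjusted p under 0.05) and in the libraries labelled AMPKa1-/- (37.7%, 3 members). These 3 again include Cfb in each genotype, and its call is not read. The ranges of LPS and vehicle were apart for 7 members in wild type and 8 in the libraries labelled AMPKa1-/-, as they were for 72.1% and 71.6% of all genes. Those of LPS + Dex and LPS were apart for 4 members in each genotype (48.4% and 46.4% of all genes), and those of LPS + Dex and vehicle for 5 and 6 (55.4% and 67.7%). The LPS, Dex and LPS + Dex comparisons share their vehicle or LPS libraries.

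Dex alone and DAMPs alone each called fewer members than LPS did, as each also called a smaller share of all genes. Dex against vehicle called 2 members in wild type, C5ar1 up and Cfp down, with 30.9% of all genes called. Among the libraries labelled AMPKa1-/-, Dex called C1qa and C1qb, both up, with 27.9% of all genes called. DAMPs against vehicle called C3 and, at the pseudocount of 1, no other member, in wild type (2.01% of all genes) as in the libraries labelled AMPKa1-/- (4.13%). DAMPs + Dex against DAMPs called 5 members in wild type, 3 up and 2 down (24.3%), leaving out Cfb, whose call is not read, and 3 in the libraries labelled AMPKa1-/-, 2 up and 1 down (25.3%). Ranges were apart between Dex and vehicle for 2 and 5 members in the 2 genotypes (50.2% and 46.7% of all genes), between DAMPs and vehicle for 2 and 2 (13.1% and 21.1%), and between DAMPs + Dex and DAMPs for 5 and 6 (34.4% and 38.8%). The median change of all genes tested was -0.19 on the log2 scale for wild-type LPS and -0.30 for the libraries labelled AMPKa1-/-, with 2258 genes called higher and 4068 lower in wild type and 2295 and 5004 in the libraries labelled AMPKa1-/-.

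**Figure D1:**
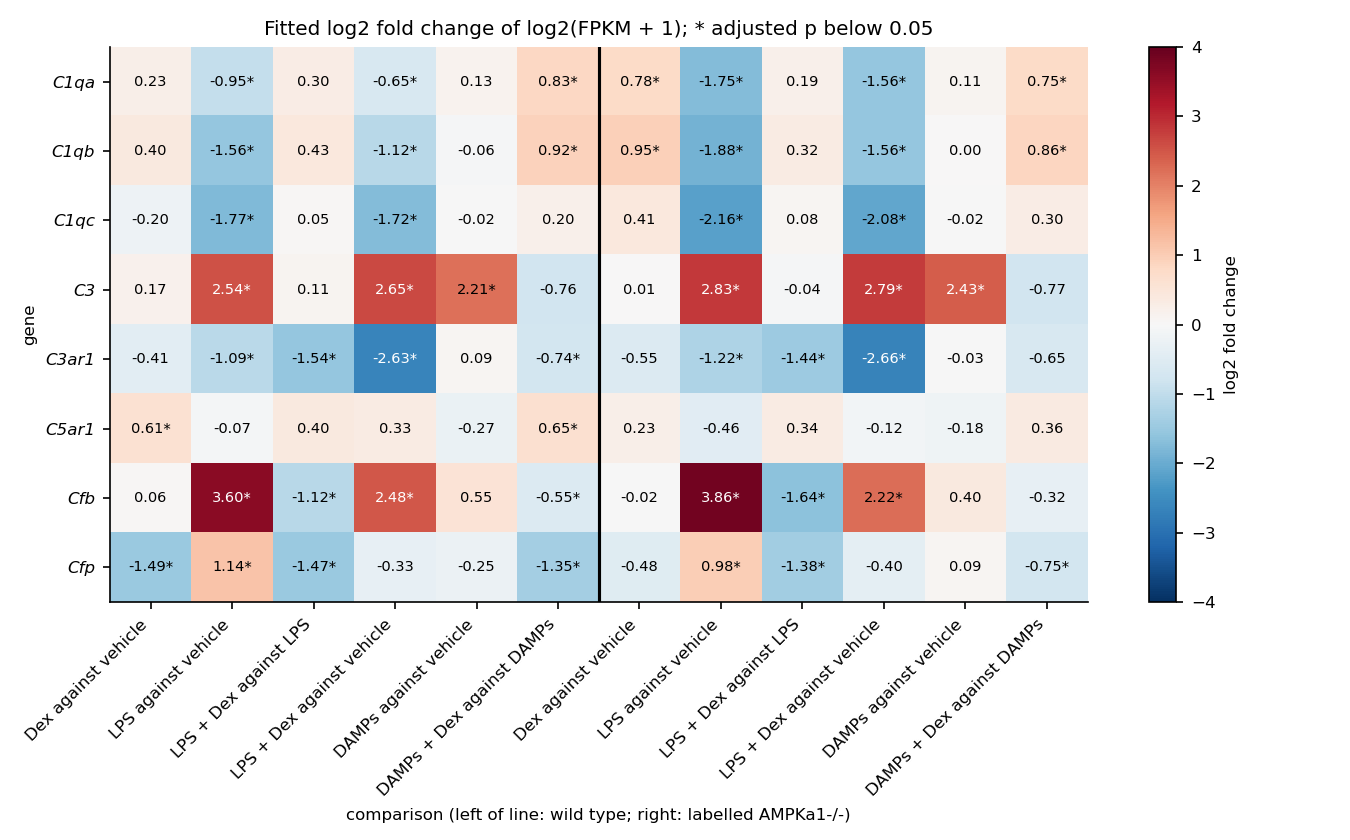
Fitted log2 fold change of log2(FPKM + 1) for the 8 complement genes (rows) in 6 treatment comparisons (columns), wild type left of the line and libraries labelled AMPKa1-/- right of it, with an asterisk at an adjusted p under 0.05, which is not read for Cfb. The LPS columns run from -1.77 for C1qc to 3.60 for Cfb in wild type, and from -2.16 to 3.86 in the libraries labelled AMPKa1-/-.

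C1q transcripts were among the most abundant of the members. Together the 3 chains made up 0.896% to 1.26% of the FPKM sum in wild-type vehicle cultures and 0.268% to 0.440% in wild-type LPS cultures. Across the libraries labelled AMPKa1-/-, the share was 0.947% to 1.09% with vehicle and 0.170% to 0.303% with LPS. The highest mean shares were 1.62% in the libraries labelled AMPKa1-/- with Dex and with DAMPs + Dex, and 1.61% in wild type with DAMPs + Dex. The share with DAMPs alone, 0.840% to 1.17% in wild type, overlapped that of vehicle. The summed macrophage markers moved as well, but Lyz2 weighs most in this sum. Over all libraries Lyz2 read 10343 to 35906 FPKM and the sum 15366 to 40535, and the other markers are not given separately here. The sums came to 21184 to 27076 FPKM with vehicle, 18624 and 15702 with LPS and 28611 to 33149 with LPS + Dex in wild type, where LPS lay below both other treatments. In the other genotype the sums were 22007 to 32857, 15366 to 25664 and 28435 to 40535 FPKM, and LPS overlapped vehicle. The part of this movement in the falls of the C1q chains and C3ar1 with LPS was not tested.

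C1qb, the B chain, read 2775, 3807 and 2616 FPKM in wild-type vehicle cultures and 788 and 1340 FPKM with LPS. All LPS libraries lay below all vehicle libraries. The fall was 1.56 ± 0.23 (SE) on the log2 scale, or 2.94-fold, with an adjusted p of 2e-06. With LPS + Dex, C1qb read 1111, 1740 and 1387 FPKM, which overlaps the LPS range, and its difference from LPS was 0.43 ± 0.23 with an adjusted p of 0.16. In the libraries labelled AMPKa1-/-, C1qb read 2926, 2876 and 3119 FPKM with vehicle, 622, 958 and 880 with LPS, and 906, 1107 and 1011 with LPS + Dex. There LPS lowered it 3.68-fold (log2 change -1.88 ± 0.21, adjusted p 8.7e-09), again without overlap.

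Without LPS, a rise of C1qb with Dex was called in the libraries labelled AMPKa1-/- and, on top of DAMPs, in both genotypes. In wild type, C1qb read 4131, 3409 and 4486 FPKM with Dex, which overlaps the vehicle range, and the change of 0.40 ± 0.21 had an adjusted p of 0.15. Among the libraries labelled AMPKa1-/-, it read 5108, 6879 and 5333 FPKM with Dex, all above vehicle, and rose 1.93-fold (0.95 ± 0.21, adjusted p 0.00096). On top of DAMPs, Dex raised C1qb in wild type from 2371, 2911 and 3501 FPKM to 5214, 6932 and 4576 FPKM. This was a 1.90-fold rise (adjusted p 0.0013), and the rise in the libraries labelled AMPKa1-/- was 1.82-fold (adjusted p 0.0025). The groups did not overlap in either genotype. The difference between genotypes in the response to Dex alone was 0.55 ± 0.29 with an adjusted p of 0.26, so the 2 responses were not shown to differ.

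C1qa, the A chain, also fell with LPS. It read 1490, 2330 and 1415 FPKM in wild-type vehicle cultures and 664 and 1173 with LPS, a fall of 0.95 ± 0.30 on the log2 scale (adjusted p 0.009). That call was lost without wild-type LPS replicate 2 or without wild-type vehicle replicate 2, with values from -1.36 to -0.54 over all alternatives. Across the libraries labelled AMPKa1-/-, C1qa read 1750, 1919 and 1956 FPKM with vehicle and 368, 749 and 621 with LPS, a 3.37-fold fall (adjusted p 2.3e-06) that kept its call throughout. LPS + Dex left C1qa at 842, 1558 and 968 FPKM in wild type and at 565, 799 and 562 FPKM in the libraries labelled AMPKa1-/-. Against vehicle, these were changes of -0.65 ± 0.27 (adjusted p 0.043, not called under 9 of 15 alternatives) and -1.56 ± 0.27 (adjusted p 1.6e-05).

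Dex raised C1qa in the libraries labelled AMPKa1-/- to 2808, 4037 and 2921 FPKM, above all vehicle libraries. The rise was 1.71-fold (adjusted p 0.031), and without Dex replicate 2 it was 0.61 on the log2 scale with an adjusted p of 0.15, 1 of 6 alternatives of 15 that lost the call. In wild type, C1qa read 1950, 1712 and 2394 FPKM with Dex, within reach of the vehicle values (change 0.23 ± 0.27, adjusted p 0.53). With DAMPs + Dex, C1qa read 3010, 4248 and 2813 FPKM in wild type against 1420, 1956 and 2313 with DAMPs, a 1.78-fold rise (adjusted p 0.024). The matching rise in the libraries labelled AMPKa1-/-, from 1995, 2270 and 1832 FPKM to 2728, 3683 and 3894 FPKM, was 1.68-fold (adjusted p 0.042). Both of these calls were lost without some single libraries, with values of 0.63 to 0.99 and 0.65 to 0.90 over the alternatives.

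C1qc, the C chain, fell furthest with LPS and was not called higher with Dex in any setting of stimulus or genotype. It read 2334, 3212 and 2213 FPKM in wild-type vehicle cultures, 573 and 979 with LPS, and 591, 1066 and 734 with LPS + Dex. The vehicle values stood above all others of this set, and the LPS and LPS + Dex values overlapped. LPS lowered it 3.40-fold in wild type (adjusted p 8.6e-07) and 4.47-fold in the libraries labelled AMPKa1-/- (adjusted p 2.6e-09). The latter read 2167, 2231 and 2610 FPKM with vehicle, 376, 664 and 562 with LPS, and 483, 632 and 540 with LPS + Dex. With Dex alone, C1qc read 2176, 1954 and 2556 FPKM in wild type (change -0.20 ± 0.22, adjusted p 0.51). In the libraries labelled AMPKa1-/-, it read 2785, 3403 and 3117 FPKM with Dex (0.41 ± 0.22, adjusted p 0.18), all above the vehicle libraries. The difference between these responses was 0.61 ± 0.32 with an adjusted p of 0.25. In wild type, C1qc read 2033, 2666 and 2925 FPKM with DAMPs and 2689, 3662 and 2420 with DAMPs + Dex, which overlap (0.20 ± 0.22, adjusted p 0.59). The other genotype read 2361, 2427 and 2111 FPKM with DAMPs and 2428, 2917 and 3216 with DAMPs + Dex, a change of 0.30 ± 0.22 (adjusted p 0.35), with all DAMPs + Dex values above those of DAMPs.

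**Figure D2:**
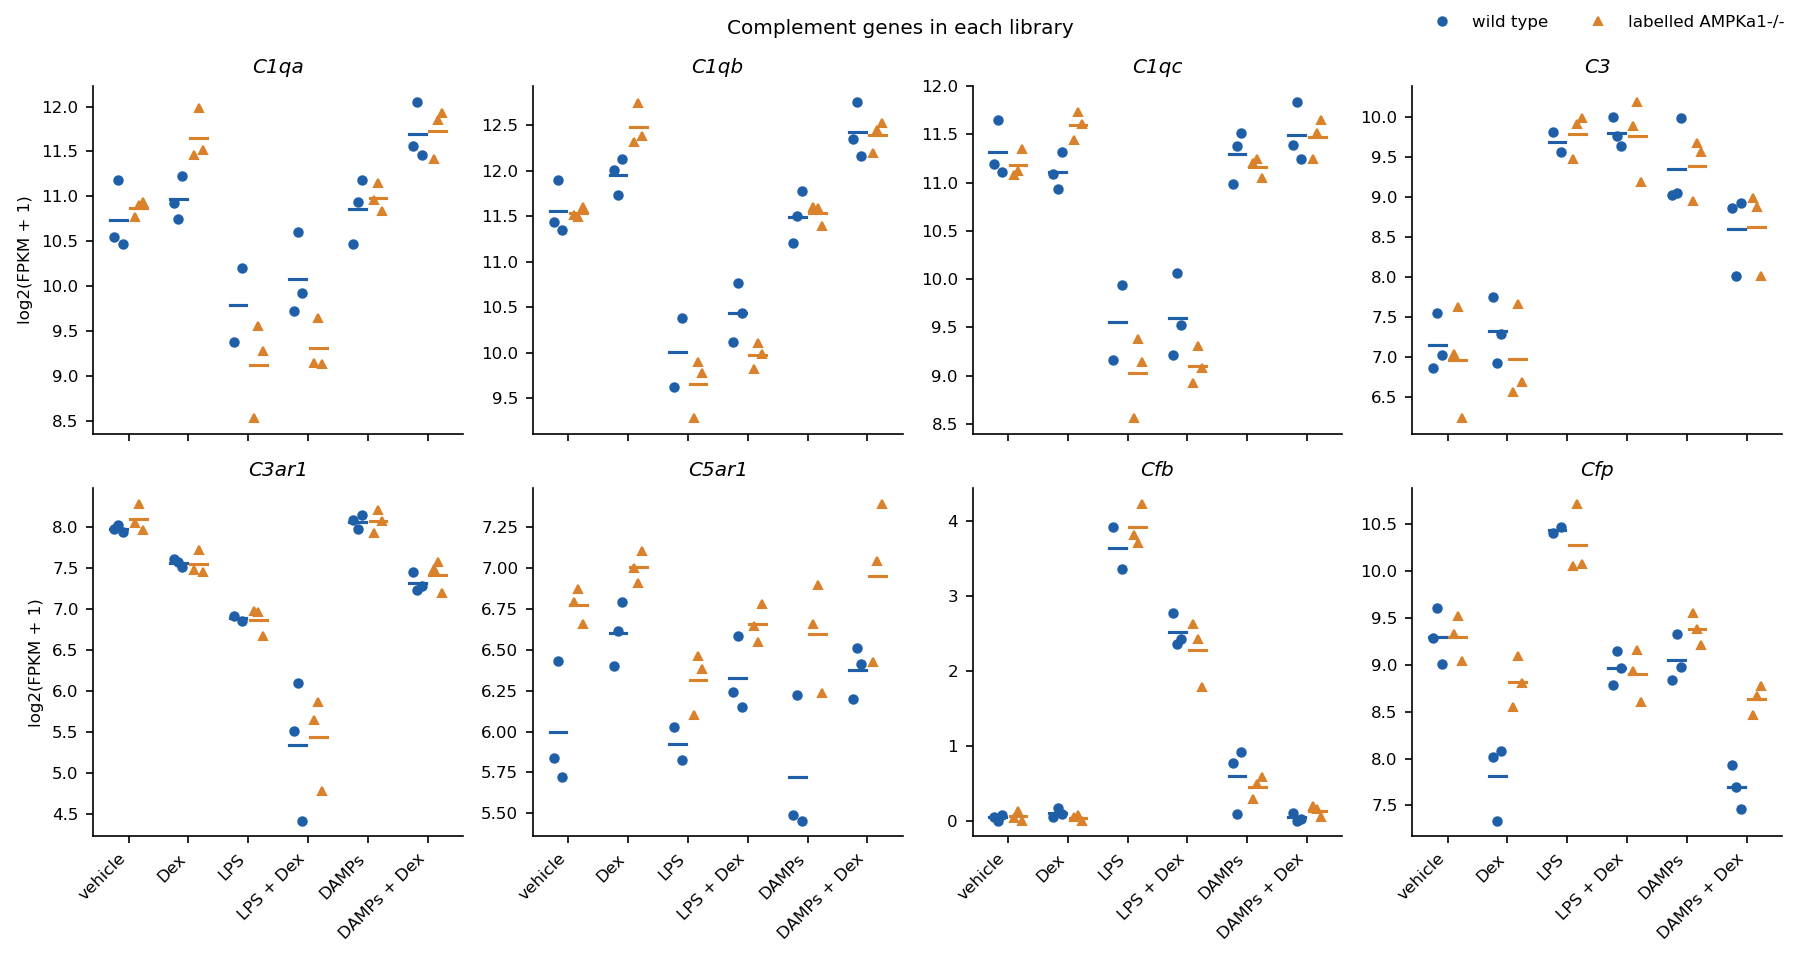
Level of each complement gene as log2(FPKM + 1) in every library, by treatment, with circles for wild type, triangles for libraries labelled AMPKa1-/- and a line at each group mean. The C1q panels drop in the LPS and LPS + Dex columns, while C3, Cfb and Cfp have their highest wild-type values with LPS or LPS + Dex, and the vertical scale differs between panels.

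C1qc was not called with Dex where C1qa and C1qb were, so the ratio of chains was taken within each library, where library scaling cancels. This comparison was chosen after the values were seen. In wild-type vehicle cultures the ratio of C1qc to C1qa was 1.38 to 1.57, and with Dex it was 1.07 to 1.14. With DAMPs it was 1.26 to 1.43, and with DAMPs + Dex 0.860 to 0.893. Among the libraries labelled AMPKa1-/- it was 1.16 to 1.33 with vehicle, 0.843 to 1.07 with Dex, 1.07 to 1.18 with DAMPs, and 0.792 to 0.890 with DAMPs + Dex. Libraries with Dex therefore lay below those without it in each of these 4 settings. With LPS the ratio was already lower, 0.834 to 0.863 in wild type, and with LPS + Dex it was 0.684 to 0.759. Across the libraries labelled AMPKa1-/- the LPS range, 0.886 to 1.02, overlapped the LPS + Dex range, 0.791 to 0.961.

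Averaged over the 6 settings, Dex changed the log2 ratio of C1qc to C1qa by -0.37, with single settings between -0.63 and -0.11. The ranges with and without Dex were apart in 5 of 6 settings. The ratio of C1qb to C1qa moved the other way and by less, 0.13 on the log2 scale with single settings between 0.10 and 0.17, with the ranges apart in 2 of 6. Since these ratios were chosen from the same libraries, their values are a description and no test is given.

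**Figure D3:**
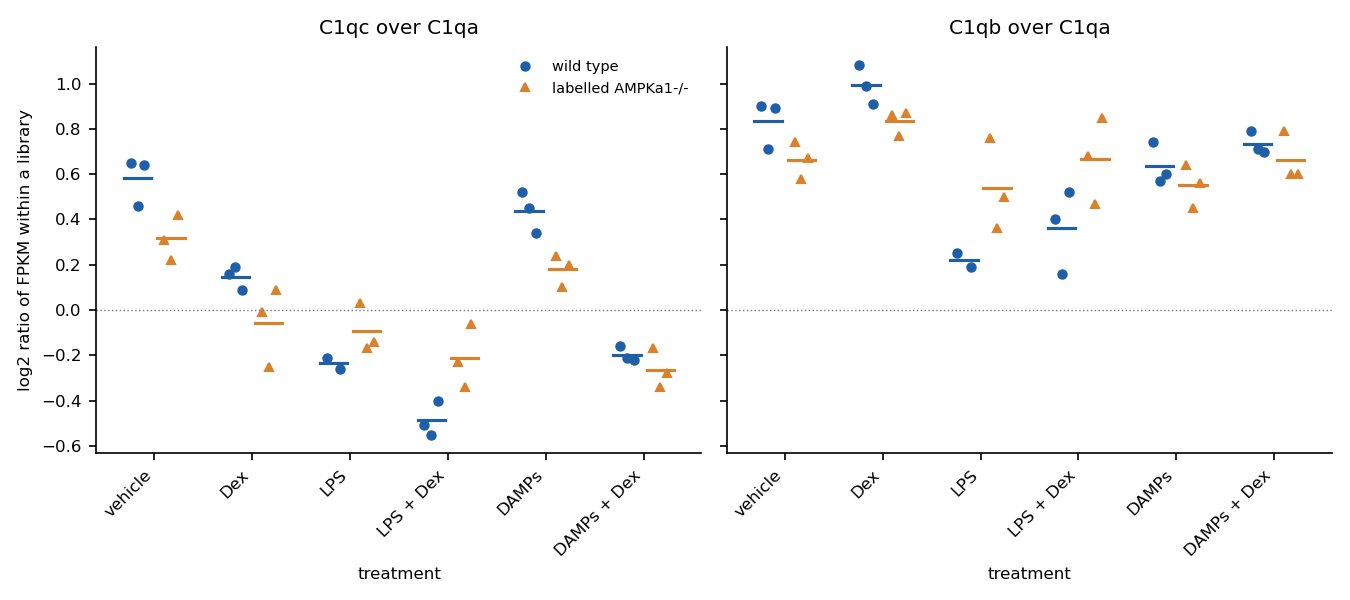
Log2 ratio of FPKM within each library, C1qc over C1qa on the left and C1qb over C1qa on the right, by treatment, with circles for wild type, triangles for libraries labelled AMPKa1-/- and a line at each group mean. In the left panel the wild-type mean falls from 0.59 with vehicle to 0.15 with Dex and from 0.43 with DAMPs to -0.20 with DAMPs + Dex.

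Over the 12 group means of log2(FPKM + 1), the 3 C1q genes had Pearson correlations of 0.98 (C1qa with C1qb), 0.95 (C1qa with C1qc) and 0.96 (C1qb with C1qc). The points share libraries and their scaling, so these are descriptions. The genes outside the members with the closest patterns, among those with a mean of at least 5 FPKM, were Zfp777, Slc12a9 and Bex3 for C1qa (0.979, 0.975 and 0.972). For C1qb they were Zfp777, Ap1b1 and Mzt2 (0.993, 0.991 and 0.990), and for C1qc Atpaf1, Fbxw9 and Dtd1 (0.992, 0.989 and 0.988). Of the 22 other genes tested within 1 Mb of the C1q genes, 0 were called between genotypes under 4 or more of the 6 treatments, and 5 were called under Dex, where 26.5% of all genes were.

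C3, the component on which all complement pathways converge, rose with LPS and with DAMPs, and no change was called on adding Dex to LPS. In wild type it read 115, 186 and 129 FPKM with vehicle, 898 and 751 with LPS, and 1024, 864 and 795 with LPS + Dex. All 5 stimulated libraries lay above all vehicle libraries. The rise with LPS was 5.82-fold (2.54 ± 0.40 on the log2 scale, adjusted p 4.2e-06), and LPS + Dex differed from LPS by 0.11 ± 0.40 (adjusted p 0.86). In the libraries labelled AMPKa1-/-, C3 read 130, 196 and 74.2 FPKM with vehicle, 710, 963 and 1011 with LPS, and 944, 1164 and 583 with LPS + Dex. There the rise with LPS was 7.10-fold (adjusted p 9.4e-08), and LPS + Dex differed from LPS by -0.04 ± 0.36.

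C3 was the one member called with DAMPs. It read 519, 529 and 1008 FPKM in wild type, a 4.62-fold rise over vehicle (adjusted p 0.0015), and 491, 812 and 752 FPKM in the libraries labelled AMPKa1-/-, a 5.38-fold rise (adjusted p 0.00025). No DAMP library overlapped vehicle. In a fit of the wild-type DAMPs and vehicle libraries alone, the same change had an adjusted p of 0.095, and 0 genes in all were called there. With DAMPs + Dex, C3 read 462, 256 and 482 FPKM in wild type, all below DAMPs alone, and 504, 469 and 256 FPKM in the libraries labelled AMPKa1-/-, where the ranges overlapped. The changes, -0.76 ± 0.36 (adjusted p 0.13) and -0.77 ± 0.36 (adjusted p 0.12), were not called. Dex alone left C3 at 214, 120 and 155 FPKM in wild type and at 93.7, 202 and 102 FPKM in the libraries labelled AMPKa1-/-, overlapping the vehicle range in each genotype. The closest patterns to C3 were those of Lgals3bp, Aoah and Slc31a2 (Pearson r of 0.933, 0.895 and 0.890 over 12 groups).

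Cfb, which encodes the protease of the alternative pathway convertase, was close to 0 without LPS. It passed the filter only through its LPS and LPS + Dex libraries, so its place in the counts of members called was set in part by the filter. It read 0.031, 0 and 0.0571 FPKM in wild-type vehicle cultures, 14.1 and 9.30 with LPS, and 5.84, 4.12 and 4.37 with LPS + Dex. The 3 treatments did not overlap. Log2(FPKM + 1) was 3.60 ± 0.22 higher with LPS than with vehicle in wild type, a scale that understates the difference of so weak a gene, and 6.50 higher with a pseudocount of 0.1. These are given as a description, with no test. LPS + Dex was lower than LPS by 1.12 ± 0.22, also a description, since the LPS libraries carried Cfb past the filter. Among the libraries labelled AMPKa1-/-, Cfb read 0.0243, 0.0933 and 0 FPKM with vehicle, 13.0, 12.1 and 17.7 with LPS, and 5.15, 4.37 and 2.44 with LPS + Dex. The difference from vehicle was 3.86 ± 0.19 with LPS and the change on adding Dex to LPS was -1.64 ± 0.19, both again descriptions.

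With DAMPs, Cfb stayed under 1 FPKM, at 0.707, 0.0627 and 0.884 in wild type and at 0.221, 0.397 and 0.496 in the libraries labelled AMPKa1-/-. The lowest wild-type DAMP value, 0.0627 FPKM, and the highest wild-type vehicle value, 0.0571 FPKM, each came to an estimated 3.2 fragments. The weakest Cfb values above 0 came to 1.6 on this estimate. It takes all 2825 annotated exon bases as the length, so it may run high, and a shorter length would give fewer fragments. With DAMPs + Dex, Cfb read 0.074, 0 and 0.0178 FPKM in wild type, overlapping DAMPs. In the libraries labelled AMPKa1-/- it read 0.141, 0.108 and 0.0336 FPKM, all below DAMPs. No test of Cfb is read for DAMPs or DAMPs + Dex, since it would not have passed the filter on these libraries. The level of Cfb is uncertain for another reason. Of its 2825 exon bases, 2246 (79.5%) are also annotated to the readthrough gene Gm20547, which was listed at 0 in all 35 libraries, and how fragments on shared bases were counted is not given in the sources used here. C2, the classical pathway counterpart next to it, shares 42.8% of its exon bases with Gm20547 and reached at most 1.62 FPKM. St3gal3, Wfdc18 and Socs1 had the patterns closest to Cfb (0.995, 0.995 and 0.994).

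Cfp, which encodes properdin, was raised by LPS and lowered by Dex in several settings. In wild type it read 621, 776 and 515 FPKM with vehicle, 1353 and 1413 with LPS, and 441, 565 and 497 with LPS + Dex. LPS stood above both other treatments, and LPS + Dex overlapped vehicle. The rise with LPS was 1.14 ± 0.23 on the log2 scale (adjusted p 0.00014) and the fall on adding Dex to LPS was 2.77-fold (-1.47 ± 0.23, adjusted p 9.9e-06). Across the libraries labelled AMPKa1-/-, Cfp read 643, 731 and 524 FPKM with vehicle, 1059, 1673 and 1073 with LPS, and 488, 571 and 387 with LPS + Dex. LPS raised it 1.97-fold there (adjusted p 0.00017) and Dex lowered it 2.60-fold under LPS (adjusted p 3.9e-06).

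Without LPS or DAMPs, a fall of Cfp with Dex was called in wild type and not in the other genotype. Dex left it at 257, 161 and 269 FPKM in wild type, a 2.80-fold fall from vehicle (-1.49 ± 0.21, adjusted p 3e-06), and the fall was 1.25 on the log2 scale without Dex replicate 2. In the libraries labelled AMPKa1-/- it read 373, 546 and 447 FPKM with Dex, which overlaps vehicle, and the change of -0.48 ± 0.21 had an adjusted p of 0.087. The difference between these responses was 1.01 ± 0.29 with an adjusted p of 0.19 (0.0019 before adjustment), so it was not called. DAMPs left Cfp at 456, 641 and 503 FPKM in wild type, and DAMPs + Dex at 243, 207 and 176 FPKM, a 2.54-fold fall (adjusted p 1.2e-05). Among the libraries labelled AMPKa1-/-, DAMPs + Dex gave 352, 405 and 435 FPKM against 746, 667 and 592 with DAMPs, a 1.68-fold fall (adjusted p 0.0078). Pf4, Dcakd and Pfdn1 had the patterns closest to Cfp (0.951, 0.948 and 0.947).

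C3ar1, which encodes the receptor of the C3a fragment, fell with LPS and fell further when Dex was added. In wild type it read 251, 259 and 244 FPKM with vehicle, 120 and 115 with LPS, and 44.7, 67.9 and 20.5 with LPS + Dex. The 3 treatments did not overlap. LPS lowered it 2.13-fold (-1.09 ± 0.28, adjusted p 0.0016), and LPS + Dex was 2.91-fold lower than LPS (-1.54 ± 0.28, adjusted p 7.1e-05) and 6.19-fold lower than vehicle (adjusted p 7.9e-10). In a fit of only the wild-type LPS and LPS + Dex libraries, the difference of these treatments had an adjusted p of 0.069. Across the libraries labelled AMPKa1-/-, C3ar1 read 265, 310 and 249 FPKM with vehicle, 125, 124 and 101 with LPS, and 49.4, 57.6 and 26.6 with LPS + Dex. The falls there were 2.34-fold with LPS (adjusted p 0.00012) and a further 2.71-fold on adding Dex (adjusted p 3.4e-05).

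Dex alone left C3ar1 at 195, 190 and 182 FPKM in wild type and at 178, 211 and 174 FPKM in the libraries labelled AMPKa1-/-, below vehicle without overlap in each genotype. The changes, -0.41 ± 0.25 (adjusted p 0.22) and -0.55 ± 0.25 (adjusted p 0.11), were not called. DAMPs left it at 270, 251 and 282 FPKM in wild type and at 243, 296 and 268 FPKM in the libraries labelled AMPKa1-/-, and DAMPs + Dex at 174, 150 and 155 and at 179, 190 and 146 FPKM. The fall with Dex under DAMPs was called in wild type (-0.74 ± 0.25, adjusted p 0.029, not called without any 1 of 4 libraries) and not in the libraries labelled AMPKa1-/- (-0.65 ± 0.25, adjusted p 0.057, but called under 5 of 15 alternatives). Wls, Arl4c and Ehd4 had the closest patterns (0.984, 0.982 and 0.981).

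Whether Dex acted on a member differently with and without LPS was tested within each genotype, a comparison added after the values were seen. In wild type, 2 members of 8 were called, C3ar1 and Cfb, where 32% of all genes were, and the effect of Dex on C3ar1 was lower by 1.13 ± 0.38 under LPS (adjusted p 0.022). In the libraries labelled AMPKa1-/-, Cfb and Cfp were called, against 28.4% of all genes, Cfp by -0.90 ± 0.29 (adjusted p 0.021), and C3ar1 was not called (-0.89 ± 0.35, adjusted p 0.061, and 0.034 with the replicate number as a block). Without LPS or DAMPs, Cfb read at most 0.123 FPKM, so its values here repeat its fall under LPS and nothing is read from them. The call of C3ar1 in wild type was lost without either LPS library or LPS + Dex replicate 3, with values between -1.51 and -0.67 over the alternatives. That of Cfp was lost without Dex replicate 2, LPS replicate 2, LPS + Dex replicate 3 or vehicle replicate 3, with values between -1.03 and -0.68.

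C5ar1, which encodes the receptor of the C5a fragment, was not called with LPS in either genotype. In wild type it read 56.3, 85.3 and 51.7 FPKM with vehicle, 64.2 and 55.7 with LPS, and 74.7, 95.0 and 70.1 with LPS + Dex. The LPS values lay within the vehicle range, and the change of -0.07 ± 0.24 had an adjusted p of 0.82. Among the libraries labelled AMPKa1-/-, C5ar1 read 110, 116 and 100 FPKM with vehicle, 67.8, 87.4 and 82.4 with LPS, and 99.0, 92.8 and 109 with LPS + Dex. The LPS values were all below vehicle, a change of -0.46 ± 0.21 with an adjusted p of 0.062, and of 0.031 with the replicate number as a block. Dex raised C5ar1 in wild type to 83.4, 97.0 and 110 FPKM (1.52-fold, adjusted p 0.032), and DAMPs + Dex gave 72.6, 90.4 and 84.3 FPKM against 44.0, 73.7 and 42.9 with DAMPs (1.57-fold, adjusted p 0.025). Vehicle or DAMPs replicate 2 reached into the Dex range in each case, and both calls were lost without any 1 of 4 libraries. Across the libraries labelled AMPKa1-/-, Dex gave 127, 119 and 137 FPKM (0.23 ± 0.21, adjusted p 0.46) and DAMPs + Dex 85.1, 131 and 167 against 100, 118 and 74.3 with DAMPs (adjusted p 0.24). Cytip, Dffa and Yipf4 had the closest patterns (0.923, 0.901 and 0.876).

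Ordered by group mean, some members fell into separate levels and others did not. The lowest 4 groups of C1qa, C1qb and C1qc were the LPS and LPS + Dex groups, whose ranges overlapped from each group to the next. The highest of them, wild-type LPS + Dex, was apart from the next group up for C1qb and C1qc but overlapped wild-type vehicle for C1qa. The highest 3 groups of each chain were Dex labelled AMPKa1-/- and DAMPs + Dex of both genotypes, also overlapping. They were apart from the next group down for C1qa and C1qb, whereas for C1qc DAMPs + Dex labelled AMPKa1-/- overlapped wild-type vehicle. C3 fell into LPS, LPS + Dex, DAMPs and DAMPs + Dex groups, 400 to 897 FPKM with overlap between neighbours, and vehicle and Dex groups at 133 to 163 FPKM, apart from them. C3ar1 ranked vehicle and DAMPs (251 to 274 FPKM), then Dex and DAMPs + Dex (160 to 189), LPS (117 in each genotype) and LPS + Dex (44.4 and 44.5), with no overlap between these 4 levels. For C5ar1 every group overlapped the next, from 128 down to 53.5 FPKM.

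Between genotypes, Cfp and C5ar1 were the members called. The libraries labelled AMPKa1-/- against wild type gave 0 called members with vehicle (0.432% of all genes called in limma, 1 member at an unadjusted p under 0.05), LPS (0.766%, 2 members) and LPS + Dex (0.669%, 3 members). With Dex, 1 member was called (Cfp) where 26.5% of all genes were, with DAMPs 1 (C5ar1, 0.731%) and with DAMPs + Dex 1 (Cfp, 1.06%). No member and no other gene was called for the difference between genotypes in the response to Dex (0%, with 2441 genes and 1 member at an unadjusted p under 0.05), to LPS (0%, 514 genes and 0 members) or to Dex under LPS (0%, 311 genes and 0 members).

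Cfp was higher in the libraries labelled AMPKa1-/- under Dex by 1.01 ± 0.21 (2.01-fold, adjusted p 0.0032), with the values of each group apart, as for 49.5% of all genes. Of all genes, 3008 were called under Dex, but 305 without wild-type Dex replicate 2, 308 without replicate 2 labelled AMPKa1-/-, and 54 without both. Without both, Cfp differed by 0.63 with an adjusted p of 0.24. Under DAMPs + Dex, Cfp was higher by 0.93 ± 0.21 (1.91-fold, adjusted p 0.019), again without overlap (13.3% of all genes), a call lost without any 1 of 4 libraries. Under vehicle the values of Cfp in the 2 genotypes overlapped, with a difference of 0.00 ± 0.21.

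C5ar1 had a higher mean in the libraries labelled AMPKa1-/- under all 6 treatments, by 0.33 to 0.87 on the log2 scale, with ranges apart under vehicle, Dex, LPS and DAMPs, where those of 13.9%, 49.5%, 30.2% and 11.6% of all genes were apart. The difference was called with DAMPs (0.87 ± 0.21, adjusted p 0.049), and under 10 of 14 alternatives that call was lost. With vehicle it was 0.78 ± 0.21 (adjusted p 0.11). The 3 C1q chains were higher under Dex by 0.68, 0.52 and 0.48 without a call (adjusted p 0.058, 0.061 and 0.10), and lower under LPS + Dex by values of -0.77, -0.47 and -0.50 (adjusted p 0.28, 0.52 and 0.54). C1qa and C1qb were called under Dex when libraries were centred on a common median (adjusted p 0.035 and 0.041), C1qa also without wild-type Dex replicate 3, and without replicate 2 of both genotypes their differences were 0.41 and 0.28.

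**Figure D4:**
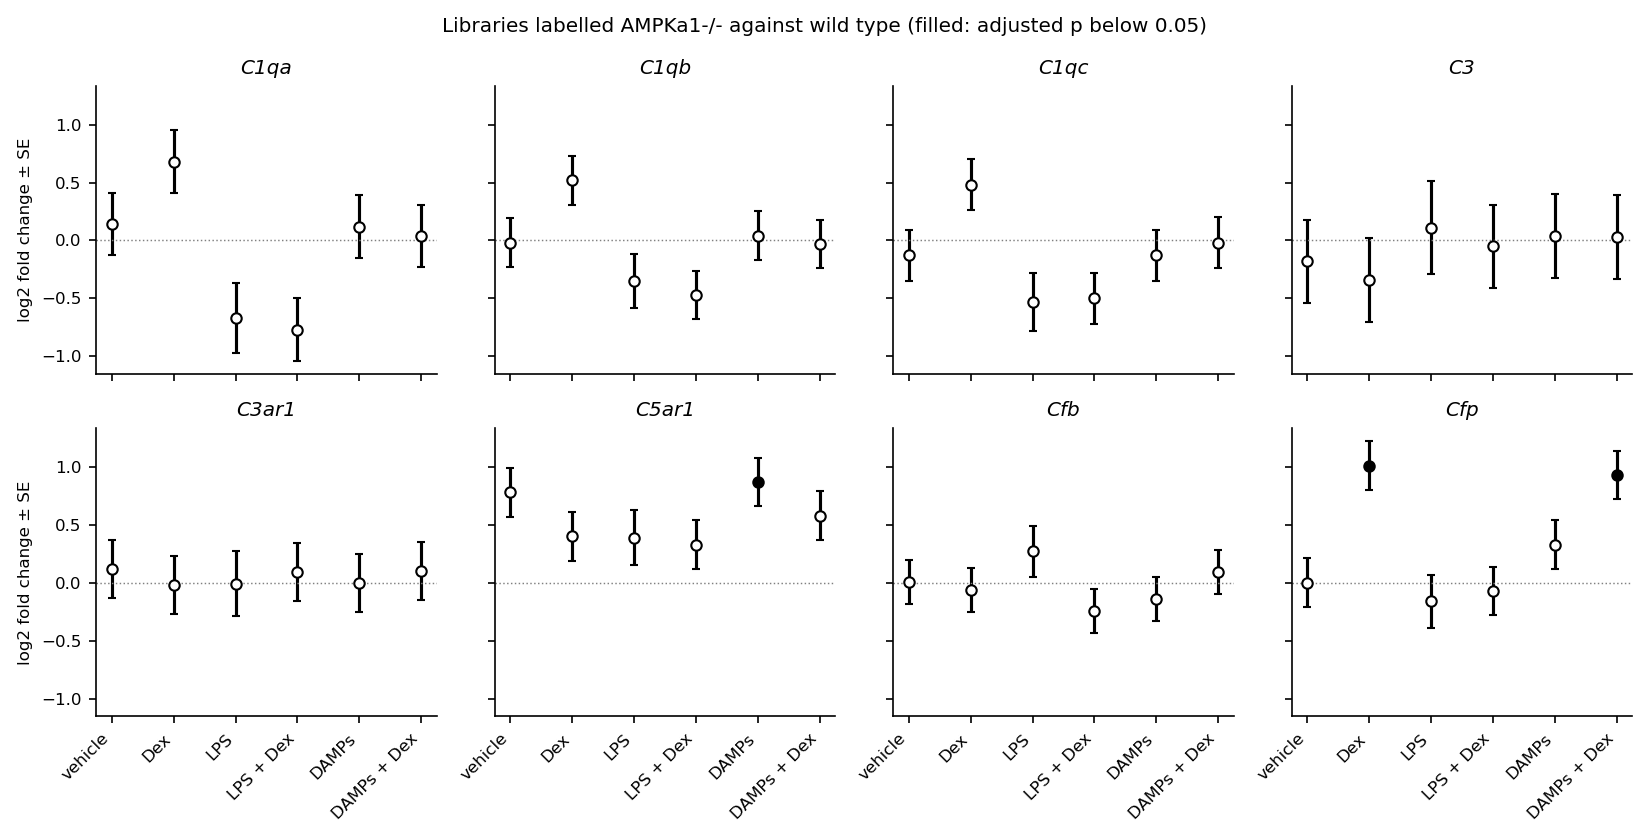
Fitted log2 difference of log2(FPKM + 1), libraries labelled AMPKa1-/- minus wild type, for each complement gene under the 6 treatments, with bars of 1 SE and filled points at an adjusted p under 0.05. Filled points are Cfp under Dex (1.01) and DAMPs + Dex (0.93) and C5ar1 under DAMPs (0.87), and all 6 C5ar1 points lie above 0.

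Of 49 other complement genes, 17 passed the filter. With LPS, 3 of the 17 rose and 10 fell in wild type, and 4 rose and 10 fell in the libraries labelled AMPKa1-/-, with a median change of -0.63 and -0.66 against -0.19 and -0.30 for all genes, of which 55.7% and 64.3% were called. Adding Dex to LPS raised 6 and lowered 2 in wild type, and raised 7 and lowered 3 in the libraries labelled AMPKa1-/- (34.1% and 37.7% of all genes called). With Dex alone, 2 rose and 4 fell in wild type, and 3 rose and 6 fell in the libraries labelled AMPKa1-/- (30.9% and 27.9%). DAMPs called 0 of them in wild type and 1, C1ra, in the libraries labelled AMPKa1-/- (2.01% and 4.13%). Between genotypes, 1 was higher and 4 lower under Dex in the libraries labelled AMPKa1-/- (26.5% of all genes called), and 0 were called under the other treatments, with 0 to 1 at an unadjusted p under 0.05 in limma.

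Among the regulators, Cd55 rose with both LPS and Dex, and Cd59a fell with each of them. Cd55 encodes the membrane regulator that dissociates C3 convertases. In wild type it averaged 2.80 FPKM with vehicle (SD 0.678), 19.1 with Dex (SD 0.683), 12.9 with LPS (SD 3.13) and 69.7 with LPS + Dex (SD 26.8). It rose with Dex by 2.42 ± 0.29 (SE), with LPS by 1.87 ± 0.32 and on adding Dex to LPS by 2.28 ± 0.32 (adjusted p 2.7e-07, 1.7e-05 and 2e-06). Cd59a, which blocks assembly of the membrane attack complex, averaged 6.81 FPKM with vehicle, 3.08 with Dex, 3.18 with LPS and 6.80 with LPS + Dex in wild type. Dex lowered it without LPS (-0.96 ± 0.17, adjusted p 0.00011) and raised it with LPS (0.89 ± 0.19, adjusted p 0.00057), and the difference of these effects was 1.85 ± 0.26 (adjusted p 3.4e-06). Of the 15 regulators, 4 passed the filter.

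In the classical and lectin pathways, 4 of 16 genes passed the filter. Colec12, a membrane collectin, averaged 85.4 FPKM with vehicle, 11.9 with LPS and 29.9 with LPS + Dex in wild type, a fall with LPS of 2.74 ± 0.29 and a rise on adding Dex of 1.23 ± 0.29 (adjusted p 4e-09 and 0.0012). Fcna, a ficolin that recognises sugars, averaged 7.66 FPKM with vehicle, 21.7 with Dex and 1.37 with LPS. Dex raised it 2.82-fold (adjusted p 0.0014) and LPS lowered it by 1.76 ± 0.38 (adjusted p 0.00027). C1ra, a C1 protease, averaged 2.29 FPKM with vehicle, 5.14 with LPS and 2.29 with LPS + Dex (changes 0.91 ± 0.28 and -0.90 ± 0.28, adjusted p 0.0071 and 0.014). C1ra and C4a, the fourth gene, have near-identical copies, C1rb and C4b, between which reads could be split. C2 reached 1.62 FPKM at most, and Mbl1 and Mbl2, the mannose-binding lectins, were listed at 0 in all libraries.

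Of 8 alternative and terminal pathway genes, C8g alone passed the filter. It averaged 3.79 FPKM with vehicle, 1.86 with LPS and 3.97 with LPS + Dex in wild type, a fall of 0.75 ± 0.19 and a rise of 0.81 ± 0.19 (adjusted p 0.0018 and 0.0016). Hc, which encodes C5, the source of the ligand of C5ar1, reached 1.02 FPKM at most, and C6, C7, C8a and C8b stayed under 0.1 FPKM in every library. Cfd, the protease that activates factor B, reached 0.118 FPKM.

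Of 10 other complement receptors, 8 passed the filter. Cd93, named as a C1q receptor and active in uptake of dying cells, averaged 81.2 FPKM with vehicle and 12.8 with LPS in wild type (-2.58 ± 0.30, adjusted p 3e-08). Lrp1, a large endocytic receptor that pairs with calreticulin, fell from 424 to 99.2 FPKM (-2.07 ± 0.35, adjusted p 1.4e-05). Vsig4, a receptor of C3b on resident macrophages, fell from 4.47 to 0.301 FPKM (-2.07 ± 0.33, adjusted p 5e-06). For the genotype labelled AMPKa1-/- these changes were -3.01, -2.72 and -1.45 on the log2 scale, all called. Itgam and Itgax, the alpha chains of complement receptors CR3 and CR4, are described without a test, since they were chosen after their values were seen. With Dex alone, Itgam changed by -2.38 on the log2 scale in wild type and by -1.89 in the libraries labelled AMPKa1-/-, and Itgax by -1.88 and -2.53. On adding Dex to LPS, Itgam changed by -0.07 ± 0.26 and 0.22 ± 0.23, and Itgax by -0.59 ± 0.53 and -1.30 ± 0.47.

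**Figure D5:**
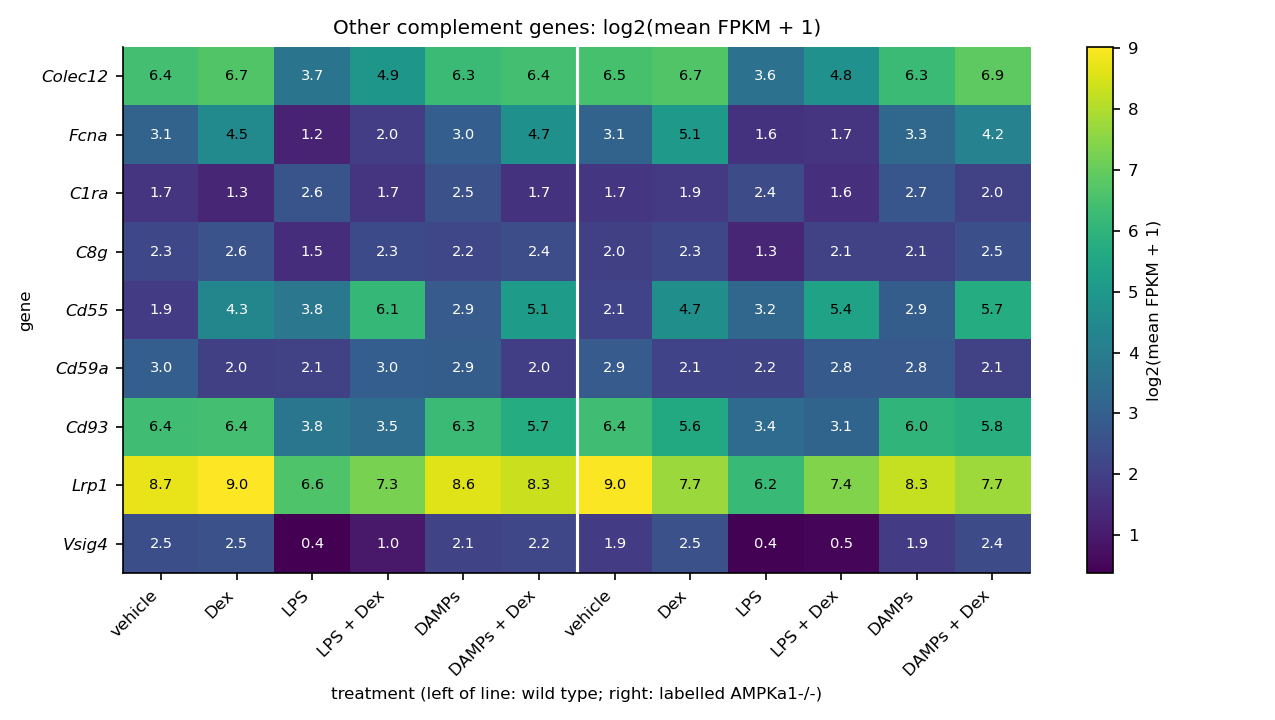
Group means of 9 other complement genes, as log2(mean FPKM + 1), with 6 treatments of wild type left of the line and of libraries labelled AMPKa1-/- right of it. Colec12 drops from a mean of 85.4 to 11.9 FPKM between wild-type vehicle and LPS, and Cd55 reaches its highest wild-type mean, 69.7 FPKM, with LPS + Dex.

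Transcripts of other cell types were low, and some moved with the treatments. Of 10 neutrophil markers, 4 had a mean of at least 1 FPKM, and the list summed to 5.26 to 19.4 FPKM in wild-type vehicle and 114 to 134 in wild-type LPS libraries, most of the latter Camp (123 FPKM on average), whereas Ly6g and Elane averaged at most 0.0667 and 0.205 FPKM in any group. Mmp8 was the most abundant of them over all libraries. The neutrophil sum of the libraries labelled AMPKa1-/- was 25.5 to 39.2 FPKM with vehicle, 61.2 to 80.9 with Dex and 102 to 122 with LPS. It was 22.6 to 43.4 with DAMPs and 62.3 to 122 with DAMPs + Dex. The sum was thus higher with Dex in settings where rises of C1qa and C1qb were called, but the markers did not rise as a set. In these libraries 4, 4 and 4 of the 10 markers reached 1 FPKM with DAMPs, and 2, 2 and 1 with DAMPs + Dex. With vehicle 4, 4 and 2 did, and with Dex 4, 4 and 3. In wild type the neutrophil sum was 7.56 to 16.0 FPKM with DAMPs and 23.1 to 41.3 with DAMPs + Dex, also without overlap. There 1 marker reached 1 FPKM in each of these libraries. With LPS + Dex the neutrophil sum was 34.3 to 53.0 FPKM in wild type and 35.2 to 43.4 in the libraries labelled AMPKa1-/-. Each lay below LPS, in the setting where falls of C3ar1 and Cfp were called. Of 8 dendritic cell markers, 2 passed, the sum being 13.5 to 19.7 FPKM with vehicle and 39.3 to 113 with LPS in wild type, most of the latter Ccr7 (73.7 FPKM), with Flt3 at or under 0.283 and Cd209a at 0 everywhere. Clec10a was the most abundant over all libraries. The dendritic sum was 4.14 to 8.02 FPKM with LPS + Dex in wild type, below LPS. For the libraries labelled AMPKa1-/- the dendritic sum was 13.1 to 18.4 FPKM with vehicle and 32.1 to 44.3 with Dex. There it was 49.9 to 90.4 FPKM with LPS and 2.98 to 7.34 with LPS + Dex. Neither pair overlapped. The 10 B and T cell markers summed to at most 37.0 FPKM, of which Cd4 made up to 35.0, and Cd3e averaged at most 0.0364. Their sum was 16.5 to 19.6 FPKM with vehicle and 3.17 and 3.42 with LPS in wild type, and 7.58 to 12.3 and 1.55 to 1.86 in the libraries labelled AMPKa1-/-. With DAMPs, where C3 was called, it was 25.1 to 37.0 FPKM in wild type and 17.8 to 22.3 in the other genotype. Both ranges lay above vehicle. DAMPs + Dex gave 7.32 to 16.9 and 6.56 to 7.74 FPKM in the same order, below DAMPs in each. The 8 fibroblast markers, of which 4 passed, summed to a median of 5.67 FPKM over the libraries, with Col1a2 averaging 4.53 FPKM in wild-type vehicle and 0.718 in that labelled AMPKa1-/-. Their sum rose from 1.71 to 3.16 FPKM with vehicle to between 9.75 and 14.5 with LPS in the libraries labelled AMPKa1-/-. Wild-type vehicle, 1.66 to 18.7 FPKM, overlapped LPS, 18.3 and 18.8 FPKM. Mast cell and basophil markers (6 genes, Tpsb2 and Fcer1a at 0 everywhere, Cpa3 the most abundant) and erythroid markers (6 genes, Alas2 the most abundant) summed to at most 0.927 and 0.335 FPKM. The part of these transcripts in the changes of the complement genes was not tested.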

How the data were processed

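RNA of BMDM cultures was extracted with TRIzol, and libraries were made with Illumina protocols and sequenced by Novogene. The authors deposited FPKM per Ensembl gene identifier for each library. The submitters' processing notes name TopHat2 2.0.12, Bowtie2 2.2.3, HTSeq 0.6.1, DESeq2 and GRCm38 (mm10), with no role or order, and the study names no program for the gene test. Of 47069 identifiers, 46574 were given a symbol from GENCODE M21. The values are not counts: 55.1% to 63.4% of weak genes came out as whole fragments within 0.001, too few for a count test. A fragment on 1 kb was worth 0.0313 to 0.0631 FPKM.

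Log2(FPKM + 1) of genes with a mean of at least 1 FPKM was fitted with limma 3.58.1 (R 4.3.3, 12 groups, 35 libraries, trended empirical Bayes), with 2-sided p-values adjusted by the Benjamini-Hochberg method over all 11354 genes. The fit pools the spread of all groups, which serves wild-type LPS with 2 libraries. Ratios and tables used Python 3.11.15, numpy 2.4.6 and pandas 2.3.3, and figures matplotlib 3.10.9. Promoter windows came from RefSeq.

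The members, lists and tests were chosen with earlier results of these data known. All 8 members are named in each comparison. Of 4 lists of other complement genes (classical and lectin pathway, alternative and terminal pathway, regulators, receptors), the 3 genes of each with the largest called change with LPS or on adding Dex to LPS are named, except where a gene is not reported here. Per member, the 3 genes with the highest Pearson r over 12 group means are named. Markers of 7 cell types and response genes of LPS and Dex served as checks.

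Same-numbered libraries of the treatments compared deviated together (correlation over 0.1) in 23 of 34 pairs, with a range of -0.49 to 0.47. Every pair did so for Dex, LPS and LPS + Dex against vehicle and LPS + Dex against LPS in the libraries labelled AMPKa1-/-, where blocked values are given if a call changed. What the numbers mark is not given in the sources used here, so p-values measure the spread between these cultures.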

Additional observations from a re-analysis of the deposited data

How the results depend on the processing

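Of 184 member results (8 genes in 23 comparisons), 54 were called, of which 36 kept their call under every alternative run, 18 lost it under at least 1 and 0 changed sign. Of the 130 not called, 17 were called under at least 1 alternative. The 54 include the calls of Cfb, which are not read. The counts of members below likewise include Cfb wherever it was tested and called. With the replicate number as a block, 0 member calls were lost and 3 gained (C3ar1 and C5ar1 values in the libraries labelled AMPKa1-/-), and 5 genes were called for the genotype difference in the LPS response. What the numbers mark is not stated, and the block changed no other member call. The causes of the changes below were not tested.

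Members called were 1 with no filter and 1 with median centring for wild-type Dex against vehicle, 2 with a pseudocount of 0.1 and 0 with only the groups compared for wild-type DAMPs, and 2 with no filter, 3 with only the groups compared and 3 with only the genotype's libraries for wild-type DAMPs + Dex against DAMPs. In the libraries labelled AMPKa1-/-, they were 1 with no filter and 1 with quantile normalization for Dex, and 2 with the pseudocount of 0.1 for DAMPs. Between genotypes they were 3 with median centring, 2 with only the groups compared and 0 without replicate 2 of both genotypes under Dex. Under DAMPs they were 0 with the pseudocount of 0.1, no filter, a mean of at least 5 FPKM, median centring, only the groups compared or no moderation, and under DAMPs + Dex 0 with only the groups compared. For the Dex effect under LPS against without, they were 1 in wild type with the pseudocount of 0.1, a mean of at least 5 FPKM, only the groups compared or only the genotype's libraries, and 1 in the libraries labelled AMPKa1-/- with a mean of at least 5 FPKM.

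Genes called with only the groups compared, a fit with fewer libraries, were 1931 for wild-type LPS + Dex against LPS, 0 for wild-type DAMPs (94 with only the genotype's libraries), 1825 for wild-type DAMPs + Dex against DAMPs and 274 for DAMPs in the libraries labelled AMPKa1-/-. Between genotypes that fit called 13 with vehicle, 4 with LPS, 7 with LPS + Dex, 7 with DAMPs and 32 with DAMPs + Dex. With no filter, genes called between genotypes were 92 with vehicle, 450 with LPS and 146 with LPS + Dex, and for the genotype differences 21 (Dex), 118 (LPS) and 75 (Dex under LPS). With a mean of at least 5 FPKM they were 27 with vehicle and 54 with DAMPs, with the pseudocount of 0.1 they were 41 with DAMPs, and without replicate 2 of both genotypes 54 under Dex. The genotype difference for Dex called 4 with median centring and 1 with quantile normalization, that for LPS 1 with quantile normalization and 3 without moderation, and that for Dex under LPS 1 with quantile normalization.

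Leaving out single libraries gave, between genotypes, 28 to 58 genes with vehicle, 305 to 3106 with Dex, 9 to 133 with LPS, 36 to 110 with LPS + Dex, 25 to 55 with DAMPs and 49 to 97 with DAMPs + Dex. It gave 27 to 374 genes for wild-type DAMPs, 268 to 456 for DAMPs in the libraries labelled AMPKa1-/-, and 0 to 1 (Dex), 0 to 12 (LPS) and 0 to 2 (Dex under LPS) for the genotype differences. Members called were then 0 to 1 with vehicle, 1 to 2 with Dex, 0 to 1 with DAMPs and 0 to 1 with DAMPs + Dex between genotypes. They were 1 to 2 for wild-type Dex, 1 to 2 for wild-type DAMPs, 2 to 6 for wild-type DAMPs + Dex against DAMPs (6 with all libraries, Cfb counted), 1 to 2 for Dex in the libraries labelled AMPKa1-/-, and 1 to 2 (wild type) and 1 to 3 (labelled AMPKa1-/-) for the Dex effect under LPS against without. The replicate 2 exclusion of both genotypes, the Dex effect under LPS and the chain ratio were chosen after the data were seen. Where leaving out a wild-type LPS library left 1, that library was assumed to vary like the other groups. A fragment on 1 kb was worth up to 0.0631 FPKM, so Cfb without LPS rests on few fragments.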
